A study of Mus musculus with 30 samples.

Results

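Cytosolic ribosomal protein genes encode the protein part of the large (Rpl) and small (Rps) ribosomal subunits, and were examined here as a housekeeping reference in H3K27ac peak lists of 2 mouse lung adenocarcinoma cell lines. The genes were taken by symbol: protein-coding genes of the GENCODE mouse annotation whose symbol begins with Rpl or Rps followed by a digit or p, leaving out the 10 genes whose symbol begins with Rps6k, which encode kinases and not ribosomal proteins. This gave 91 of 21951 protein-coding genes. Of these, 76 are the standard set of the mammalian ribosome, called core genes below (46 of the large and 30 of the small subunit). Another 7 are paralogues of a core gene (Rpl3l, Rpl7l1, Rpl10l, Rpl22l1, Rpl36al, Rpl39l and Rps27l). The other 8 share the symbol form: Rpl9-ps1, Rpl9-ps6, Rpl10-ps3, Rpl36-ps4, Rpl36a-ps1, Rps12-ps3 and Rps27rt, which are named as copies of a ribosomal protein gene, and Rps19bp1, which encodes a protein that binds RPS19.

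Ribosomal protein genes are among the most strongly transcribed genes of growing cells, and their products are needed in equal amounts, so their promoters are usually active together. Their transcripts typically begin with a cytosine followed by a run of pyrimidines, the 5′ terminal oligopyrimidine tract, through which their translation follows nutrient and growth signals. H3K27ac, the acetylation of lysine 27 of histone H3, marks active promoters and enhancers.

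CK1750 and Tnm2 cells were cultured with DMSO, the solvent, or with UNC0638 at 1 µM in serum-supplemented medium; UNC0638 blocks G9a and Glp, enzymes that methylate lysine 9 of histone H3. H3K27ac was mapped by chromatin immunoprecipitation and sequencing in 9 samples. CK1750 has 3 samples with DMSO and 2 with UNC0638, and Tnm2 has 2 with each. Each of these 4 groups has 1 deposited peak list, so no list has a replicate, no test between groups was possible and every difference below is a description. Both lines are cultured tumour cells, each a single line, and the labels name no further genotype, deletion or transgene. The lists held 27367 peaks for CK1750 DMSO, 24601 for CK1750 UNC0638, 30641 for Tnm2 DMSO and 18794 for Tnm2 UNC0638, with median widths between 831 and 1048 bp. Read depth is unknown. A promoter peak of a gene was a peak within 1 kb of any annotated start site, and where there were several the one with the highest score was used. Scores are compared as percentiles within a list (0 for the lowest, 100 for the highest of the list's peaks), because they grow with depth. Promoter peaks at epithelial marker genes were found in each list for 4 of 5 genes and at 0 of 4 leucocyte and 0 of 3 endothelial genes. Of 4 fibroblast genes, the collagen gene Col1a1 had one in each list but Tnm2 UNC0638, and the others had none. Nkx2-1, Foxa1 and Foxa2, lung lineage factors, had a peak in each list. Of the surfactant genes, Sftpb had one in Tnm2 UNC0638 alone and Sftpc and Sftpa1 had none, and Napsa, another lung epithelial gene, had none.

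Nearly all core ribosomal protein genes carried an H3K27ac promoter peak in both lines and under both treatments. In CK1750 DMSO 76 of 76 core genes had one, beside 47.6% of all protein-coding genes (Wilson 95% interval of the core share 95.2 to 100%, which like all intervals here covers counting error only). In CK1750 UNC0638 the count was again 76 of 76, beside 46.8% of protein-coding genes. In Tnm2 DMSO it was 76 of 76 beside 46.6%, and in Tnm2 UNC0638 73 of 76 (96.1%, 89.0 to 98.6%) beside 38.8%. A peak in each of the 4 lists was found for 73 core genes and for 37.0% of protein-coding genes. Over all 91 genes of the symbol rule the shares were 90.1%, 89.0%, 89.0% and 85.7% in the same order of lists.

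The 3 core genes without a peak in Tnm2 UNC0638 were Rpl14, Rps21 and Rplp1. Rplp1 encodes one of the acidic stalk proteins that recruit elongation factors, while Rpl14 and Rps21 encode proteins of the large and the small subunit. Rpl14 (chr9:120571444-120574654, + strand, mm10) had peaks of 1478 bp in CK1750 DMSO, 1458 bp in CK1750 UNC0638 and 930 bp in Tnm2 DMSO, at percentiles 61.8, 61.4 and 63.3. Rps21 (chr2:180257377-180258445, + strand) had highest-scoring peaks of 921, 1145 and 683 bp in those lists, at percentiles 58.4, 44.1 and 45.4. These are not at 1 place: in both CK1750 lists the peak used ends before the gene, and the Tnm2 DMSO peak covers its 5′ end. A second peak lay within the gene or over its 5′ end in CK1750, of 631 bp with DMSO (percentile 51.2) and 713 bp with UNC0638 (39.3). Rplp1 (chr9:61913284-61914542, - strand) had peaks of 1526, 1733 and 1616 bp, at percentiles 72.5, 68.0 and 69.9. All 3 thus lay below the core median in each list that held them. In Tnm2, 3.95% of core genes with a DMSO peak had none with UNC0638, beside 18.1% of protein-coding genes. By height of the DMSO peak, between percentiles 50 and 75 of the Tnm2 DMSO list 2 of 12 core genes had no UNC0638 peak, beside 18.4% of protein-coding genes, and from percentile 75 upward 0 of 63 did, beside 0.605%. The core gene below percentile 50, Rps21, had none, and neither did 67.5% of protein-coding genes there. In CK1750 0 of 76 core genes lost their peak, beside 4.78%.

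Other gene groups of protein synthesis and turnover were also mostly marked, but less so in Tnm2 UNC0638. The 78 genes of the mitochondrial ribosome had a peak in 96.2% under DMSO and 96.2% under UNC0638 in CK1750, and in 93.6% and 73.1% in Tnm2. Translation factors (68 genes) had one in 89.7%, 91.2%, 89.7% and 75.0%, proteasome subunits (40 genes) in 87.5%, 85.0%, 85.0% and 80.0%, and ribosome biogenesis genes (35 genes) in 94.3%, 94.3%, 91.4% and 77.1%. Olfactory receptor genes, which are silent outside sensory neurons, had one in 0.176 to 0.441% of 1135 genes. Among ribosomal components that the symbol rule misses, Rpsa, Fau, whose product is made as a fusion with a ubiquitin-like protein, and Rack1, a scaffold protein on the small subunit, each had a peak in each list. Rpsa stood at percentiles 88.5, 87.9, 88.1 and 53.2 in the same order, so its Tnm2 UNC0638 peak was the lowest of its 4.

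**Figure D1:**
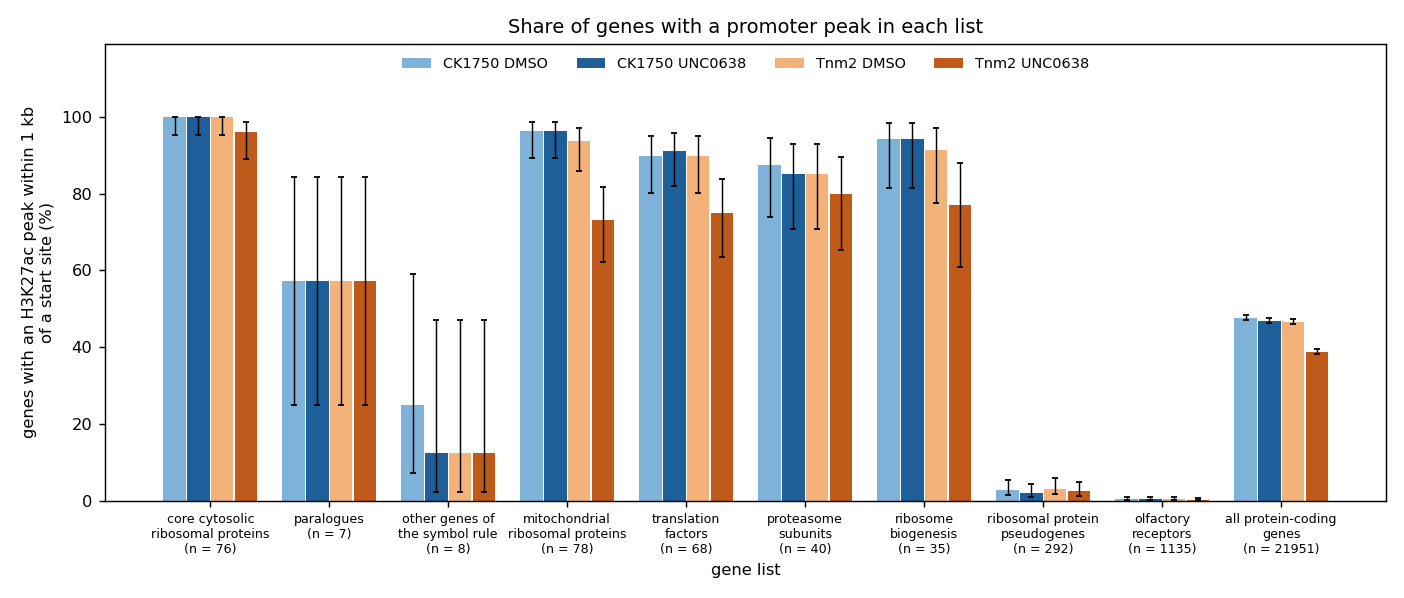
Share of genes (%) with an H3K27ac peak within 1 kb of a start site, by gene list (n is the number of genes) and peak list (4 colours). Bars give the share and lines its Wilson 95% interval. Core ribosomal protein genes stand at 100, 100, 100 and 96.1%, and mitochondrial ribosomal protein genes at 96.2, 96.2, 93.6 and 73.1%.

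Paralogues and gene copies were marked less often than the core genes. Of the 7 paralogues 4 (57.1%) had a peak in each list, beside 38.8 to 47.6% of protein-coding genes, and of the 8 other genes of the symbol rule 2 had one in CK1750 DMSO and 1 in each other list. Rpl7l1, Rpl22l1, Rpl36al and Rps27l were the marked paralogues, the same 4 in each list. The highest among them was Rpl22l1, paralogue of Rpl22, with percentiles 92.0, 90.8, 85.1 and 90.3, which is above the core median in 3 of the 4 lists. Rpl10l and Rpl39l, known as testis paralogues of the X-linked Rpl10 and Rpl39, and Rpl3l, known as the striated muscle paralogue of Rpl3, had a peak in 0 lists. The same held for Rpl9-ps1, Rpl9-ps6, Rpl10-ps3, Rpl36a-ps1, Rps12-ps3 and Rps27rt. That makes 9 of 91 genes with no peak in any list, beside 10701 of 21951 protein-coding genes. Rpl36-ps4 had a peak in CK1750 DMSO alone (1019 bp, percentile 54.4). Rps19bp1, no ribosomal protein itself, had a peak in each list but a low one, at percentiles 18.8, 55.0, 67.1 and 38.4. Among 292 annotated pseudogenes of ribosomal protein genes, which are outside the symbol rule, 2.74%, 2.05%, 3.08% and 2.40% had a peak, and 4 of them (Rpl21-ps3, Rpl21-ps8, Rpl30-ps6 and Rps15a-ps5) had one in each list.

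Reads from near-identical copies may be lost or misplaced on mapping, so the window of 1 kb on each side of the 5′ end of each gene was aligned to the rest of the genome. A copy elsewhere at 95% identity or more was found for 7 of 91 windows and covered between 17.7% (Rps29) and 49.7% (Rpl10l) of the window. Rps29 was the 1 core gene among them. No window had a copy over 50% or more of its length, so for the unmarked copies most of the window was sequence without such a match; the part of mapping in their missing peaks was not tested.

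Promoter sequence shows what a marked gene and its unmarked copy share. Rps27 had a peak in each list (percentiles 91.6, 90.8, 92.7 and 91.7), and its copy Rps27rt had none. RefSeq promoters (GRCm38.p6) are shown from 60 bases before to 24 bases from the start, 5′ to 3′ on the gene strand, and capitals mark the part shown of a 38-base run that both share. By the annotation, the run begins at base 2 of the transcribed sequence in Rps27 (chr3:90213625-90213708, - strand) and at base 1 in Rps27rt (chr9:114982716-114982799, - strand).
Rps27: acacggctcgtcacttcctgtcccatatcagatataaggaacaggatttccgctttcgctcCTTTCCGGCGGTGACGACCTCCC
Rps27rt: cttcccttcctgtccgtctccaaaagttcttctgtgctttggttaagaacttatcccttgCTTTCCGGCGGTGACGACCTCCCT
The shared letters thus begin at or next to the annotated start, and the bases before it differ. Whether Rps27rt is transcribed, and from where, was not tested. Rpl10 and Rpl10l, Rpl39 and Rpl39l, Rps27 and Rps27l, Rpl36a and Rpl36al, and Rpl22 and Rpl22l1 shared no run longer than 8 bases over the 300 bases of each promoter entry.

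The promoter table held 65 of the 91 genes and 56 of the 76 core genes, and letters were counted in the 300 bases from 250 before the start. Where a gene had several entries, the one farthest upstream on the gene strand was used. The start meant here is thus an annotated one and need not be the one most used. A run of at least 8 pyrimidines on the gene strand within 50 bases of the start was present in 45 of 56 core promoters (80.4%), beside 34.6% of 16517 protein-coding promoters. The start base was C in 35.7% of core and 14.0% of all promoters, and of the start base and the 5 bases on each side of it 62.5% and 49.1% were pyrimidines. CTTTCC within 10 bases of the start stood in 12.5% beside 0.872%, and TCTTTCC, which contains it, in 5.36% beside 0.163%. CTTTCC anywhere on the gene strand was in 33.9% beside 13.9%. The ETS-type word CCGGAAG (either strand) was found in 39.3% beside 12.3%, CCATNTT, the YY1-type word, in 32.1% beside 15.4%, and TGACGTC, the cAMP response type, in 10.7% beside 4.12%. TATAAA between 20 and 40 bases before the start was in 0 of 56 core promoters and 2.71% of all. GC content hardly differed (median 57.5% and 57.0%), whereas the median number of CG dinucleotides was 21 and 14. The letters of the pyrimidine run and of CTTTCC outside the start region were chosen after the sequences had been read.

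The promoters of genes at both ends of the score order are shown over the same stretch. Capitals mark pyrimidine runs of at least 8 bases that lie whole within the stretch shown. Rps21 and Rpl3l also have such a run within 50 bases of the start, but not whole within that stretch, so it is not marked. Rpl19, Rpl34 and Rps6 are among the 5 core genes with the highest median percentile. Rps14 and Rpl32 are also among them.
Rpl19: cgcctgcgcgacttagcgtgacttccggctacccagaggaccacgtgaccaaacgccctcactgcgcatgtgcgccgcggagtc
Rpl34: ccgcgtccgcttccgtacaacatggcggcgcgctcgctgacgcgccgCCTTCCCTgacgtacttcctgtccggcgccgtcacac
Rps6: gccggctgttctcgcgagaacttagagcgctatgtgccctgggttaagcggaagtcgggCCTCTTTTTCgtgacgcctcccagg
The 5 core genes with the lowest median percentile follow.
Rps21: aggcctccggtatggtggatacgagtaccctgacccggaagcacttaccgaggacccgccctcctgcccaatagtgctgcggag
Rps12: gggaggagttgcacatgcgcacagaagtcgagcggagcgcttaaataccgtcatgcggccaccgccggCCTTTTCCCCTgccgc
Rpl39: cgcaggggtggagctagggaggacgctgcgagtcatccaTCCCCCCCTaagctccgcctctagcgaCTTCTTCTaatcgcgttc
Rpl14: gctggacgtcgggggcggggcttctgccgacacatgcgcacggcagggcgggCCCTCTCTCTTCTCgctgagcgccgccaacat
Rps26: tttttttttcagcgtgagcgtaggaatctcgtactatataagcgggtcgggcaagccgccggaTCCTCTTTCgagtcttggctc
Runs are thus seen in promoters with high-scoring and with low-scoring peaks. The 3 paralogues with no peak are given for comparison.
Rpl10l: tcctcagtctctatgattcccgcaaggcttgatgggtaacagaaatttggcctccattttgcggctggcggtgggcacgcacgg
Rpl39l: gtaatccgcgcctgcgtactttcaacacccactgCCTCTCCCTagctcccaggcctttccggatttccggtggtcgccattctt
Rpl3l: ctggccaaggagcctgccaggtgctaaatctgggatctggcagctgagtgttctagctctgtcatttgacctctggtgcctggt

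Core promoter peaks stood high in each list. Their median percentile was 85.6 in CK1750 DMSO, 85.5 in CK1750 UNC0638, 89.7 in Tnm2 DMSO and 86.8 in Tnm2 UNC0638, where the promoter peaks of all protein-coding genes had 77.2, 73.9, 77.2 and 68.9. At percentile 90 or above lay 24 of 76 core genes in CK1750 DMSO (beside 11.6% of protein-coding genes), 28 in CK1750 UNC0638 (beside 9.89%), 38 in Tnm2 DMSO (beside 11.8%) and 28 in Tnm2 UNC0638 (beside 7.32%). In each of the 4 lists 19 core genes reached it, and 35 reached it in 0 lists. The shares of all protein-coding genes that did so in each list or in none were not counted. Mitochondrial ribosomal protein genes, with nearly as many marked promoters under DMSO, had medians of 70.5, 64.1, 72.7 and 58.7. These lay below the all-gene medians in the 4 lists. Translation factors had medians of 85.2, 78.3, 83.5 and 80.5, above the all-gene and below the core medians in each list. Of them 32.4%, 30.9%, 36.8% and 22.1% reached percentile 90. That was above the core share in CK1750 DMSO (31.6%) and below it in the other lists. Proteasome subunits (79.7, 75.5, 77.1 and 70.2) and ribosome biogenesis genes (78.2, 76.1, 77.1 and 71.9) had medians near the all-gene ones. High ranks were thus not particular to ribosomal protein genes. Ranked among promoter peaks alone, the median of the 91 genes was 64.7, 68.1, 71.2 and 74.9.

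The order of the core genes by score was similar in the 4 lists. Spearman's rho across genes was 0.95 between the CK1750 lists, 0.91 between the Tnm2 lists, 0.92 between the DMSO lists and 0.85 between the UNC0638 lists, given as a description since genes of one list share its depth; over all protein-coding genes the values were 0.93, 0.90, 0.87 and 0.82. Rpl32 had percentiles 97.2, 98.0, 99.2 and 98.5 (each line with DMSO and then UNC0638, CK1750 first, the order kept below). Rpl19 had 97.4, 97.6, 99.1 and 98.6. Rpl34 had 98.8, 97.4, 98.2 and 97.5, and Rps6, whose product is phosphorylated by the S6 kinases, had 97.4, 96.1, 98.2 and 97.9. These 4 genes thus lay within the highest few percent of peaks in each list. Rps14, the small subunit gene known from the 5q- syndrome, had the highest median (98.7). It is annotated with 5 start sites and carried 2 peaks in each list, with 24263 to 24893 bp between them. The upstream peak, which also covers the start of Ndst1, stood at 98.8, 95.6, 98.9 and 96.3, and the downstream peak at 97.7, 98.2, 98.9 and 98.7. In CK1750 DMSO the peaks of Rps14 and Rpl34 had a score of 3100, a value that many peaks share, so their ranks in that list are ties.

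At the low end were Rps21, with percentiles 58.4, 44.1 and 45.4 and no Tnm2 UNC0638 peak, and Rps12 with 57.1, 63.3, 55.5 and 13.3. Rpl39, whose product lines the exit tunnel, had 68.0, 54.8, 61.4 and 52.5. Rpl14 had 61.8, 61.4 and 63.3, and Rps26 had 66.1, 61.7, 65.2 and 54.1. These genes lay below the median of all protein-coding promoter peaks in each list that held them, so a ribosomal protein gene can have an ordinary or weak peak. The genes nearest the middle of their subunit were Rpl13a with 88.8, 86.9, 88.6 and 52.9, and Rps3 with 82.6, 83.1, 92.6 and 87.0. The 46 large subunit genes had median percentiles of 86.6, 86.6, 90.4 and 87.6 and the 30 small subunit genes 83.3, 82.9, 87.5 and 86.8, with quartiles that overlap in each list.

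**Figure D2:**
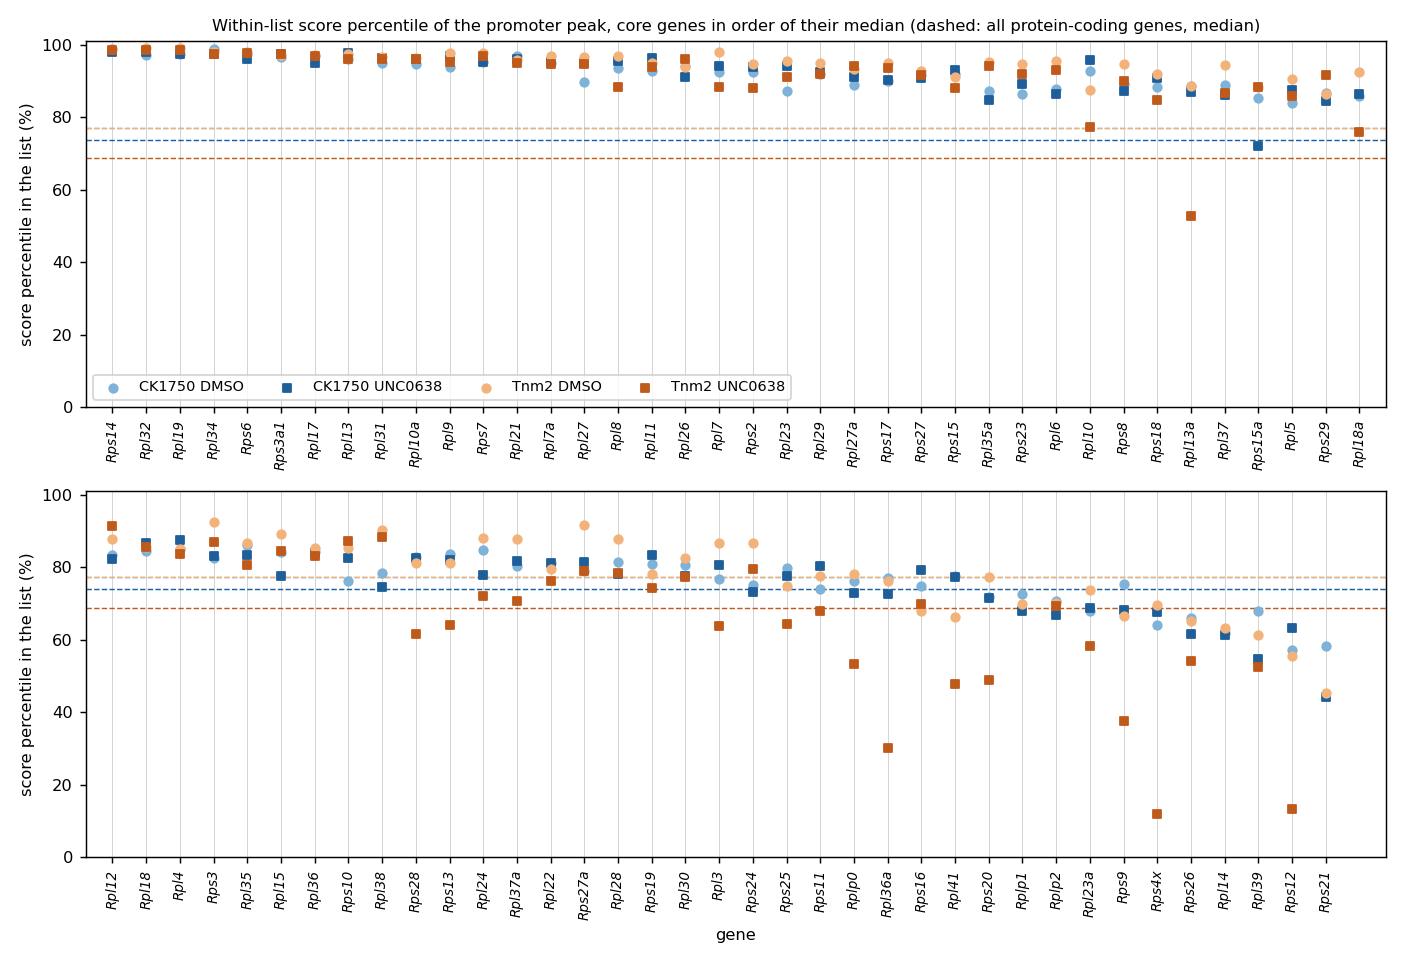
Score percentile (%) of the promoter peak within its list for core genes in order of their median, upper panel first, with the 4 lists as colours and shapes. Dashed lines give the median of all protein-coding promoter peaks (77.2, 73.9, 77.2 and 68.9). Points of the upper panel lie close together, and in the lower panel Tnm2 UNC0638 falls furthest below the others at Rps4x (12.0), Rps12 (13.3) and Rpl36a (30.2).

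Core promoter peaks were also wider than those of other genes. Their median width was 1473.5 bp in CK1750 DMSO, 1703 bp in CK1750 UNC0638, 1502 bp in Tnm2 DMSO and 1477 bp in Tnm2 UNC0638, where all protein-coding promoter peaks had 1226, 1381, 1228 and 1200 bp. Mitochondrial ribosomal protein genes had 1029, 1181, 1059 and 1032 bp. Large subunit genes had 1535, 1752.5, 1565 and 1512.5 bp and small subunit genes 1266.5, 1655, 1340.5 and 1405 bp. The widest by their median were Rpl7 (3451, 3579, 3503 and 1578 bp), Rpl10 (2749, 2962, 2138 and 1553 bp), Rps14 (2477, 2085, 2638 and 1872 bp), Rpl27a (2341, 2668, 2035 and 2152 bp) and Rpl7a (2097, 2142, 1881 and 2206 bp). The Rps14 widths are those of its upstream peak in the DMSO lists and of its downstream peak in the UNC0638 lists. Its downstream peak alone had 1849, 2085, 2144 and 1872 bp, so its place in this order depends on the peak taken. The Rpl7 peak also covered the start of Rdh10, a retinol dehydrogenase gene, in each list but Tnm2 UNC0638. The Rpl7a peak covered that of Med22, a Mediator subunit gene, in each list. The narrowest were Rps20 (782, 871, 813 and 798 bp), the stalk gene Rplp0 (706, 1090, 798 and 873 bp), Rpl23a (817, 824, 986 and 851 bp), Rps21 and Rpl41 (969, 1133, 1041 and 908 bp), which encodes one of the shortest ribosomal proteins.

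Peaks reached further into the gene than in front of it. The median core peak began 451 bp before the 5′ end and ended 989.5 bp after it in CK1750 DMSO, with 545 and 1144 bp in CK1750 UNC0638, 344.5 and 1050.5 bp in Tnm2 DMSO and 305 and 1052 bp in Tnm2 UNC0638. All protein-coding genes had 300 and 887 bp in CK1750 DMSO. Core genes are short (median 3266 bp, beside 17403 bp), so the peak covered a median of 31.8%, 35.2%, 31.5% and 29.2% of the gene, beside 3.01 to 3.50% of all protein-coding genes. Another gene's start lay under the peak of 14 core genes in CK1750 DMSO (18.4%), the same share as over all protein-coding genes (18.4%). A snoRNA gene lies inside 29 of 76 core genes (38.2%, beside 1.18% of protein-coding genes). Core genes are spread over 19 chromosomes, with 14 on chromosome 7.

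**Figure D3:**
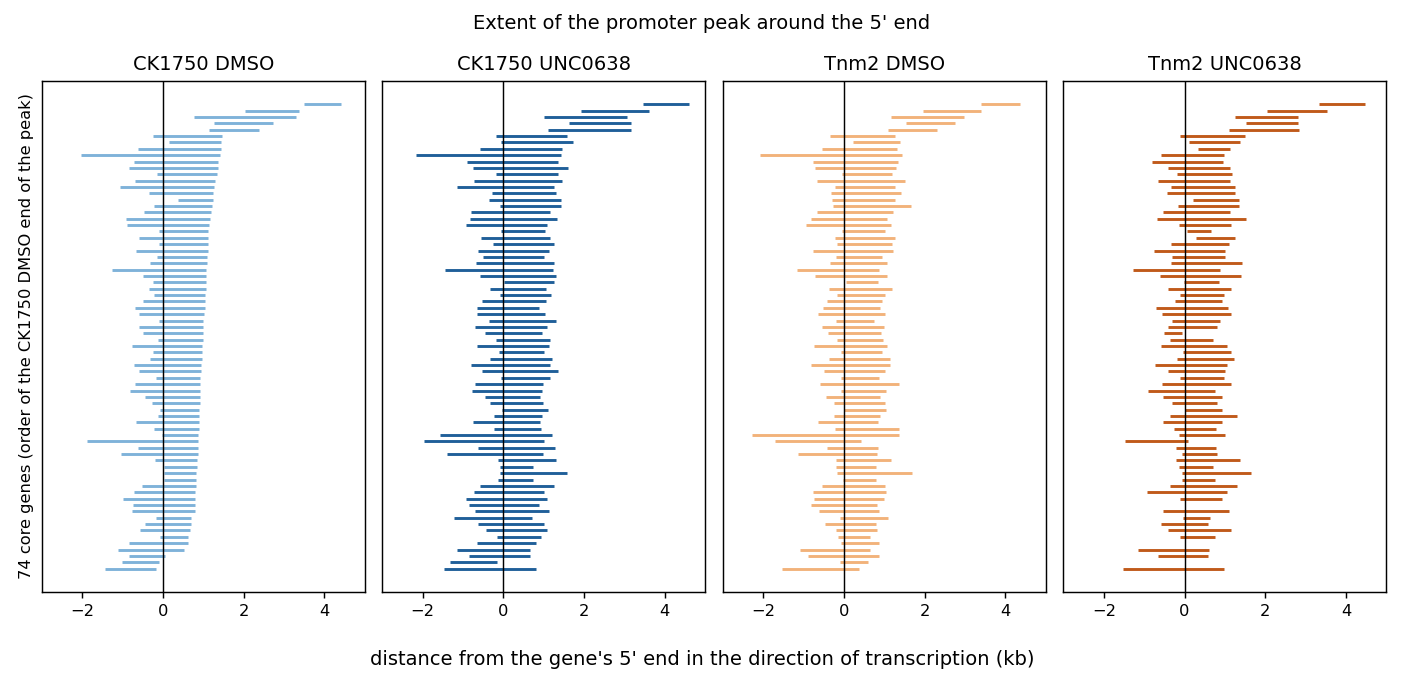
Extent of the highest-scoring promoter peak (horizontal lines) around the annotated 5′ end (vertical line at 0) for 74 core genes in the 4 lists, in kb in the direction of transcription, in the same order in each panel. Rps14 and Rpl3 are left out because their peaks lie at start sites far inside the annotated gene in at least 1 list. Most lines cross 0 and reach further to the right than to the left, and 3 lines are missing in Tnm2 UNC0638 (Rpl14, Rps21 and Rplp1).

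With UNC0638 core peaks were mostly wider in CK1750 and more often narrower in Tnm2, and so were those of other genes. In CK1750, 62 of 76 core genes had a wider peak (81.6%, beside 66.9% of protein-coding genes) and 14 a narrower one. The median difference, UNC0638 minus DMSO, was 172 bp (quartiles 46.5 and 334 bp), beside 100 bp over all protein-coding genes. In Tnm2, 33 of 73 core genes had a wider peak (45.2%, beside 34.4%) and 40 a narrower one, with a median difference of -78 bp (quartiles -364 and 122 bp) beside -92 bp. In both lines 29 of 73 core genes were wider with UNC0638, beside 23.0% of protein-coding genes. Another 9 were narrower in both, 31 were wider in CK1750 and narrower in Tnm2, and 4 the reverse. These last counts were not made over all protein-coding genes.

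Among genes wider in both lines, Rps10 had 1233 and 2051 bp in CK1750 (DMSO, then UNC0638) and 1207 and 1736 bp in Tnm2. Rpl3 had 1555 and 2111 bp, and 1728 and 2145 bp. Narrower in both were Rps14, Rps2 (2520 and 2062 bp, then 1821 and 1564 bp) and Rps4x (1218 and 1087 bp, then 1067 and 590 bp). For Rps14 the values compare different peaks: the upstream peak scored highest in both DMSO lists and the downstream peak in both UNC0638 lists. The downstream peak had 1849 and 2085 bp in CK1750 and 2144 and 1872 bp in Tnm2, so taken at 1 place it was not narrower in both lines. Rps14 was the 1 core gene whose compared peaks did not overlap. Such cases were not counted over all protein-coding genes.

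The greatest width differences were at promoters where 1 list had a single peak and the other had it in pieces. Rpl37 had peaks of 902 bp and 967 bp with 18 bp between them in CK1750 DMSO, 1 peak of 2769 bp in CK1750 UNC0638, 1 of 3663 bp in Tnm2 DMSO, and peaks of 1123 and 1441 bp with 107 bp between them in Tnm2 UNC0638. Rpl7 had 1 peak of 3503 bp in Tnm2 DMSO and peaks of 1578 and 1369 bp with 120 bp between them in Tnm2 UNC0638. Rpl13a had 1 peak of 1946 bp in Tnm2 DMSO and peaks of 864 and 625 bp in Tnm2 UNC0638. Rps29 had 1 peak of 1327 bp in Tnm2 DMSO, and in Tnm2 UNC0638 peaks of 828 and 454 bp, of which the shorter had the higher score (percentile 91.8). Rpl37 and Rps29 were chosen after their values were seen. More than 1 peak stood in the window of 10 core genes in CK1750 DMSO, 4 in CK1750 UNC0638, 5 in Tnm2 DMSO and 5 in Tnm2 UNC0638. The same was not counted over all protein-coding genes, so these counts are not read as a trait of core genes. With the lengths of all peaks of a window summed, the median difference of the 91 genes was 170 bp in CK1750 and -119.5 bp in Tnm2, against 174 and -98 bp by the highest-scoring peak.

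**Figure D4:**
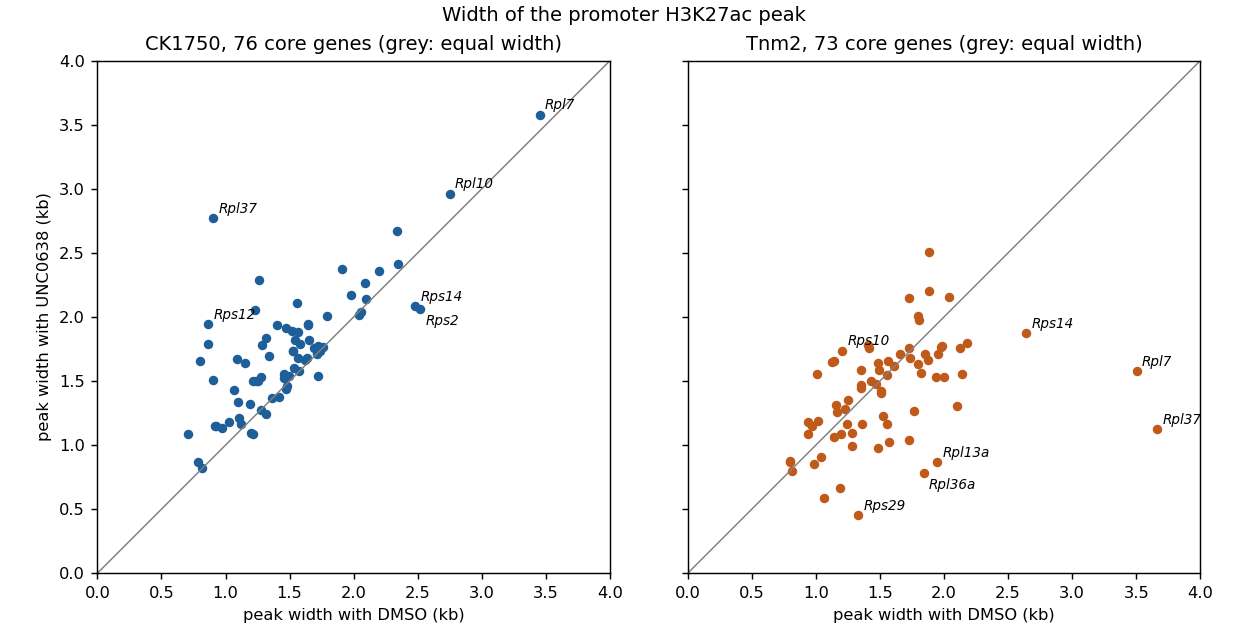
Width (kb) of the promoter peak with UNC0638 (vertical axis) against DMSO (horizontal axis) for core genes with a peak in both lists of a line, with equal width as a grey line. In CK1750 62 of 76 points lie above the line and in Tnm2 33 of 73. Rpl37 and Rpl7 lie far below it in Tnm2, where their UNC0638 peak is in pieces.

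Within whole lists, core percentiles hardly moved with UNC0638 in CK1750 and were lower in Tnm2. In CK1750 36 of 76 core genes stood higher (47.4%, beside 33.5% of protein-coding genes), and the median difference was -0.130 percentage points, beside -2.32. In Tnm2 8 of 73 stood higher (beside 10.7%), with a median difference of -3.34, beside -9.53. The Tnm2 UNC0638 list is the shortest of the 4. With the 18794 highest-scoring peaks of each list ranked, which was added after the whole-list values had been seen, the sign turned: 45 of 73 core genes stood higher with UNC0638 in Tnm2 (61.6%, beside 46.7% of protein-coding genes), with a median difference of 0.814 beside -0.362. In CK1750 50 of 76 stood higher (65.8%, beside 44.8%), with a median difference of 1.61 beside -0.854. Ranked among promoter peaks alone, the median difference of the 91 genes was 2.80 in CK1750 and -1.46 in Tnm2. So the direction for the core genes as a group depended on the ranking. Under both whole and equal-length lists their median difference stood above that of all protein-coding genes. Core peaks also started higher, with DMSO medians of 85.6 in CK1750 and 89.7 in Tnm2, beside 77.2 in each line for all protein-coding genes. Genes were not matched by starting percentile, so the part of starting height in this gap was not tested.

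Single core genes fell in rank in Tnm2 under both rankings. Rps4x (chrX:102184941-102189394, - strand), an X-linked small subunit gene, had percentiles 64.1 and 67.8 in CK1750 (DMSO, then UNC0638) and 69.7 and 12.0 in Tnm2, a difference of -57.6, or -38.5 with equal numbers of peaks. Rpl36a (chrX:134585654-134588062, + strand) had 77.1 and 72.6 in CK1750 and 76.1 and 30.2 in Tnm2, a difference of -45.9, or -30.8. Rpl13a had 88.6 and 52.9 in Tnm2, a difference of -35.8, or -28.6 with equal numbers. Rps12 had 55.5 and 13.3, a difference of -42.3, or -14.2. Rps4x, Rpl36a and Rps12 were not lower in this way in CK1750, where their differences were 3.71, -4.53 and 6.20.

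The 4 X-linked core genes (Rpl10, Rpl36a, Rpl39 and Rps4x) were set apart after these values had been seen. Their median difference in Tnm2 was -28.0, with 4 of 4 lower, beside -2.93 for core genes on autosomes and -15.1 for all protein-coding genes of the X chromosome. With equal numbers of peaks it was -16.6, with 3 of 4 lower, Rpl39 being higher by 15.5, beside 1.12 for autosomal core genes and -0.277 for all X genes. In CK1750 the median difference with whole lists was -0.667, with 2 of 4 lower, beside -0.130 on autosomes and -5.03 for all X genes. With equal numbers of peaks it was 1.35 in CK1750, beside 1.61 on autosomes and -3.18 for all X genes. The number of X chromosomes in either line was not tested.

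**Figure D5:**
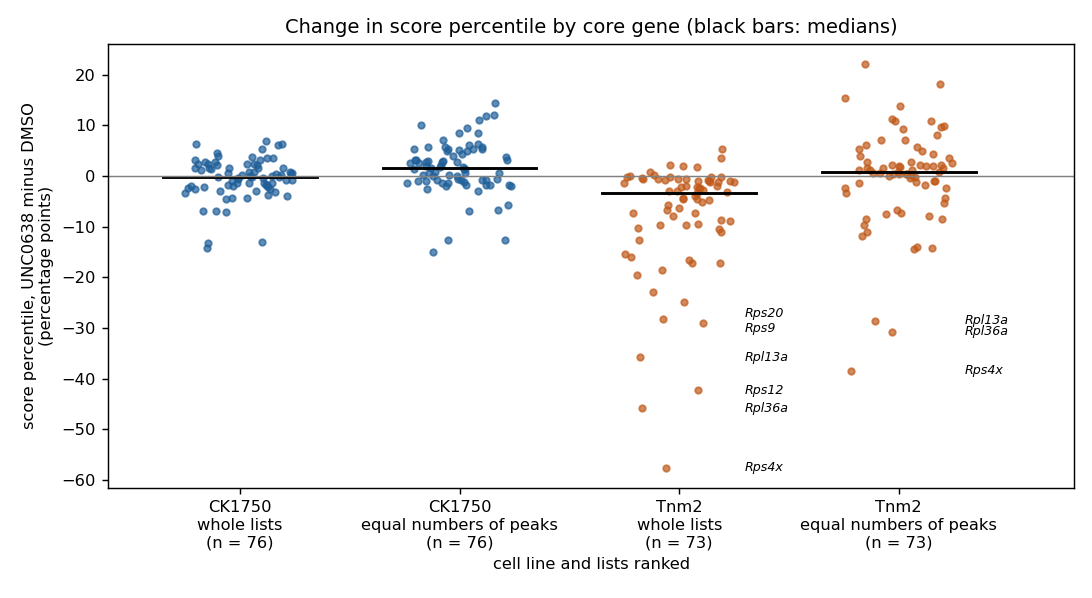
Difference in score percentile, UNC0638 minus DMSO (percentage points), for each core gene in CK1750 and Tnm2, with whole lists ranked and with the 18794 highest-scoring peaks of each list ranked. Black bars are medians (-0.130, 1.61, -3.34 and 0.814 from left to right), and genes below -25 are named. Most points lie below 0 in Tnm2 with whole lists and above 0 with equal numbers, where Rps4x, Rpl36a and Rpl13a still lie far below.

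Between the lines under DMSO, core genes stood slightly higher in Tnm2. There 53 of 76 had a higher percentile in Tnm2 (69.7%, beside 48.1% of protein-coding genes), with a median difference of 2.08 percentage points beside -0.244, while 55.3% had a wider peak beside 48.2%, with a median difference of 34 bp beside -11 bp. Of the 76, 0 lacked a Tnm2 DMSO peak, beside 7.84% of protein-coding genes with a CK1750 DMSO peak. The lists also differ in length (30641 and 27367 peaks). Under UNC0638, 27 of 73 core genes stood higher in Tnm2 (37.0%, beside 24.6%), with a median difference of -1.18 beside -6.40, and 26.0% had a wider peak beside 22.9%. Of the 76 with a CK1750 UNC0638 peak, 3.95% had none in Tnm2, beside 19.7%. These comparisons share lists with those of the treatments.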

How the data were processed

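H3K27ac chromatin from CK1750 and Tnm2 cells was immunoprecipitated and sequenced by the authors. Bowtie2 placed the reads on mm10, and MACS 1.4.2 called peaks with a cutoff of 1e-05 on P, as the methods state. The authors deposited with each peak a score, -10 log10 of P, whose lowest value is therefore 50. Each group has 1 merged list by its labels, so its samples were taken to be pooled; which libraries entered, and whether input served as control, is not stated, and the methods give more biological replicates than the labels. Both CK1750 UNC0638 samples carry the same replicate number, and one CK1750 DMSO sample is a second sequencing run. The other 21 samples of the series (H3K9me2 and input) were not used here.

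Genes and start sites came from GENCODE release M 21 (21951 protein-coding genes, GRCm38). Positions are 1-based. A peak belonged to a gene when it lay within 1 kb of a start site. Percentiles are mid-ranks of the score among all peaks of a list. Medians and counts over all protein-coding genes stand beside those of the ribosomal protein genes; no test was run, since each group has 1 list. Shares have Wilson 95% intervals. Promoter letters came from RefSeq (GRCm38.p6). Windows were aligned to the genome with minimap2 2.31, which can miss short copies. The scripts (Python 3.11.15, NumPy 2.4.6) were tested on simulated peaks. The genes, lists and named genes were chosen with earlier results of these data known. Named were core genes with no peak in a list, the 5 highest and lowest by median percentile and by median width, the 3 with the largest width difference of the same sign in both lines in each direction, the gene nearest the median percentile of each subunit, and all paralogues and components outside the symbol rule; some genes that this rule names are not reported here.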

Additional observations from a re-analysis of the deposited data

Results flagged for a closer look

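The width difference of the promoter peak between UNC0638 and DMSO had opposite signs in the 2 lines. With 1 list per group the difference between the lines was not tested, and any gene whose 2 values differ in sign is listed here. Over the 91 genes the median was 174 bp in CK1750 and -98 bp in Tnm2, and over the 76 core genes 172 bp and -78 bp. All protein-coding genes had medians of 100 bp and -92 bp, also of opposite sign, so the pattern is not particular to ribosomal protein genes. Of the 25 core genes named by rule, 12 had opposite signs. The share of all protein-coding genes with opposite signs was not counted.

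Wider in CK1750 and narrower in Tnm2 were Rpl7 (128 bp in CK1750, -1925 bp in Tnm2), Rpl13a (466 bp, -1082 bp), Rpl10 (213 bp, -585 bp), Rps12 (1076 bp, -523 bp), Rps6 (5 bp, -211 bp), Rpl34 (295 bp, -208 bp), Rpl19 (47 bp, -165 bp), Rpl23a (7 bp, -135 bp), Rpl41 (164 bp, -133 bp), Rps26 (236 bp, -81 bp) and Rps20 (89 bp, -15 bp). Rpl39 had -72 bp in CK1750 and 68 bp in Tnm2. In Tnm2 UNC0638 the peaks of Rpl7 and Rpl13a were each in 2 pieces, and in CK1750 DMSO that of Rps12 was. The differences of Rpl23a, Rps6 and Rps20 in 1 of the lines were under 20 bp.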

How the results depend on the processing

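Of 108 alternative values for 17 results, 93 stayed within the interval of the reported value, or within 1.5 times a count, with the same sign. With core genes alone the share with a peak was 100% in CK1750 DMSO, CK1750 UNC0638 and Tnm2 DMSO and 96.1% in Tnm2 UNC0638. Ranked among promoter peaks, the median percentile was 64.7, 68.1, 71.2 and 74.9 in the same order, and the difference between UNC0638 and DMSO was 2.80 in CK1750, where the sign turned, and -1.46 in Tnm2. With equal numbers of peaks, added after seeing the data, the median percentile was 78.3, 79.7 and 81.1 in the first 3 lists, and the difference turned to 1.50 in CK1750 and 0.968 in Tnm2. These follow from which peaks are ranked. Counts of genes with a peak in each list lay between 71 (peak covering a start site) and 78, and without the Tnm2 UNC0638 list, also added, the count was 81. Median width differences ranged from 160 to 190 bp in CK1750 and from -138 to -67 bp in Tnm2. No paired analysis was possible because each group has 1 list, without values per replicate, so no replicate could be left out either. Unknown read depth limits all comparisons between lists.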
